A study of Mus musculus with 6 samples.

Results

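The genes described are 7 that encode NADPH oxidases with their partner subunits and the inducible nitric oxide synthase: Nox1, Noxo1, Noxa1, Cyba, Duox2, Duoxa2 and Nos2. They were chosen by symbol, 7 of the 24346 gene entries in each library, and each of the 7 symbols was found as 1 entry. The libraries hold RNA of epithelium from distal, middle and proximal colon of wild-type mice of the inbred strain C57BL/6J that had received no treatment. Each of the 3 regions has 1 female and 1 male library, so n = 2 per region and 6 libraries in all. The labels give no age, do not say how many mice a library holds, and do not tell whether regions share mice. The p-values therefore reflect only how far these libraries differ, and some of that may be technical. Expression is given as FPKM, fragments per kilobase of transcript scaled to the size of the library, a unit that allows levels of different genes to be set side by side.

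NADPH oxidases pass electrons from NADPH across a membrane to oxygen and so make superoxide or hydrogen peroxide. NOX1, the catalytic subunit best known from colon epithelium, works with the stabilising membrane partner p22phox (Cyba), the organiser NOXO1, the activator NOXA1 and the small GTPase RAC1. DUOX2 makes hydrogen peroxide at the apical surface and reaches that surface only with its maturation factor DUOXA2, whose gene lies beside it. NOS2 makes nitric oxide from arginine and is known chiefly as a gene induced by bacterial products and cytokines.

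The libraries matched their label. All 10 epithelial marker genes were at 1 FPKM or more in every library, with a summed level of 11585 to 14212 FPKM. Markers of B and plasma cells, of fibroblasts and smooth muscle and of endothelium summed to at most 1.26, 3.31 and 3.16 FPKM. The 14 listed markers of neutrophils and macrophages summed to 41.7 to 44.0 FPKM in distal, 28.7 to 44.5 FPKM in middle and 27.1 to 27.3 FPKM in proximal libraries. Cd14 alone made up 37.8 and 37.9 FPKM of this in the female and male distal libraries. It made up 33.9 and 23.3 FPKM in the female and male middle and 20.7 and 12.3 FPKM in the female and male proximal libraries. Ptprc, Itgam and Ncf1 were higher in both proximal than in both distal libraries, and Lyz2 was lower. S100a9 was listed at 0 in every library. Of the 3 markers of this list that were tested, limma called 1 as higher in distal than in proximal colon. The 8 listed T cell and intraepithelial lymphocyte markers were at 4.61 to 5.45 FPKM in sum in distal, 6.79 to 11.9 FPKM in middle and 23.9 to 55.9 FPKM in proximal libraries. Of these 8, limma called 4 as lower in distal and 1 as lower in middle than in proximal colon. Over all tested genes, 7.64% and 1.25% were called lower in these comparisons. The summed level of 8 surface colonocyte markers was 5049 to 6818 FPKM in distal, 8048 to 10328 FPKM in middle and 9109 to 11290 FPKM in proximal libraries. Its members did not move together between distal and proximal colon: Emp1, Ceacam1 and Guca2a fell (log2 differences -3.71, -1.23 and -1.69, limma adjusted p = 0.00833, 0.0165 and 0.0405), and Krt20 (-1.31) did not pass. Here and below, a gene rose or fell in the first-named region relative to the second. The absorptive genes Aqp8, Slc20a1, Car4 and Slc26a3 had differences of 1.59, 1.32, 1.07 and 0.80 that did not pass (limma adjusted p 0.0525 to 0.0926). The 7 goblet cell markers summed to 7102 to 8251 FPKM in distal, 10018 to 14530 FPKM in middle and 4641 to 5712 FPKM in proximal libraries. Of these 7, limma called 4 as higher and 2 as lower in distal than in proximal colon. In middle against proximal colon 3 were called, all higher, and in distal against middle colon 1, lower. The 8 markers of crypt base and cycling cells summed to 112 to 133 FPKM in distal, 128 to 155 FPKM in middle and 165 to 176 FPKM in proximal libraries, with 2, Pcna and Ccnb1, called lower between distal and proximal colon. The 4 markers of deep crypt secretory cells summed to 829 to 2347 FPKM, with 1, Kit, called lower there. The sums themselves were not tested. In bulk samples, fewer cells of a type and less RNA per cell cannot be told apart.

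Promoter sequence is shown for Nox1, the member with the largest regional difference, and for Duoxa2, which shares its gene neighbourhood with Duox2. The windows are from RefSeq (GRCm38.p6), run 5′ to 3′ on the strand of the gene from 250 bases before to 50 after the annotated start, and lie at chrX:134111805-134112104 for Nox1 (minus strand) and chr2:122298650-122298949 for Duoxa2 (plus strand). Capitals mark any of 6 motifs searched on both strands: TATAAA, known as the TATA box, GGGCGG, known as the GC box, the STAT-type palindrome TTCNNNGAA, the AP-1 motif TGANTCA, the sequence AGATAA bound by factors of the zinc finger family of Gata6, and the sequence TTTATG bound by factors such as Cdx2.
Nox1: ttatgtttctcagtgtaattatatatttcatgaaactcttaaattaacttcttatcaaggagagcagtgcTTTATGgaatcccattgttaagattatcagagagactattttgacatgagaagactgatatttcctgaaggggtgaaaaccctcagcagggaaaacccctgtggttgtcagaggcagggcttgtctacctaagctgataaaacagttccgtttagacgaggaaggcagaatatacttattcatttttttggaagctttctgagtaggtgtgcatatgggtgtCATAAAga
Duoxa2: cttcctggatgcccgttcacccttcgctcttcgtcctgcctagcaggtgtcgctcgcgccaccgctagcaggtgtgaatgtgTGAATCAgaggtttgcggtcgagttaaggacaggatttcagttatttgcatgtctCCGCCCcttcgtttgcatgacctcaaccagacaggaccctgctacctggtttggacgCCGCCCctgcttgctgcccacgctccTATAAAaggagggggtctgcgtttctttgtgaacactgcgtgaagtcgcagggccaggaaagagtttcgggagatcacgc

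The Nox1 window held TTTATG at position -180 and, on the opposite strand, at position 42 relative to the start, a motif present in 11.9% of 32851 promoter windows. Its GC content was 38.0%, against a median of 52.7% over all windows. The Duoxa2 window held TATAAA at -30 (13.6% of windows), TGANTCA at -168 (7.8%) and GGGCGG on the opposite strand at -113 and -56 (35.7%). None of the marked motifs in these 2 windows overlap. Duox2 is transcribed away from Duoxa2: its RefSeq window, chr2:122298178-122298477 on the minus strand, lies 172 bases from that of Duoxa2, and none of the 6 motifs occurs in it. Most of that window lies inside the Duox2 gene as GENCODE M21 annotates it, so it is not the sequence before the start used there. The Nox1 window lies wholly inside the GENCODE M21 span of Nox1, 134086421 to 134221956 on the minus strand. It is thus not the sequence before the start of that span. In GENCODE M21 the 2 genes are 451 bases apart, at chromosome 2, 122279247 to 122298449 for Duox2 and 122298900 to 122302885 for Duoxa2. A motif match is a description of the letters in these windows, not a binding site.

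Nox1 differed most between regions among the 7 genes, and was lowest in proximal colon. It was at 5.29 FPKM in the female and 7.27 FPKM in the male distal library, 9.35 and 6.44 FPKM in the female and male middle libraries, and 3.46 and 2.17 FPKM in the female and male proximal libraries. All 4 distal and middle values lay above both proximal values, while the distal and middle values overlapped. The regional means were 6.28 ± 1.40 FPKM in distal, 7.89 ± 2.05 FPKM in middle and 2.81 ± 0.912 FPKM in proximal colon (mean ± SD, n = 2). On the log2(FPKM + 1) scale, which understates changes of low genes, the middle minus proximal difference was 1.22 (SE 0.25, 95% interval 0.60 to 1.85) and the distal minus proximal difference 0.94 (SE 0.25, 95% interval 0.32 to 1.56). Neither passed the threshold of 0.05 after adjustment over all genes tested (limma adjusted p = 0.076 and 0.066, unadjusted p = 0.00345 and 0.011). The middle minus proximal difference was alike in the sexes, at 1.22 in the female and 1.23 in the male libraries; the distal minus proximal one was 0.50 in the female and 1.38 in the male libraries. With single libraries left out, Nox1 passed between middle and proximal colon without the female distal (limma adjusted p = 0.029), male distal (0.0296) or female proximal library (0.0394), and between distal and proximal colon without the female distal library (0.0249, log2 difference 1.38). Over all settings tried the adjusted p ranged from 0.029 to 0.376 for middle and from 0.0249 to 0.331 for distal against proximal colon. The goblet cell marker sums were also lowest in the proximal and highest in the female middle library, but the single markers were split. Of these 7, limma called 4 as higher and 2 as lower in distal than in proximal colon. Muc2 was at 275 and 323 FPKM in the female and male distal against 1373 and 1607 FPKM in the female and male proximal libraries. Spdef was at 18.3 and 14.7 FPKM against 59.4 and 76.2 FPKM in the same libraries. The part of goblet cells in the Nox1 values was not tested. In GENCODE M21, Nox1 spans 134086421 to 134221956 on the minus strand of the X chromosome, introns included (mm10). This span begins upstream of the RefSeq start used for the promoter window. That span overlaps Xkrx on the same strand over 13034 bases (0.251 to 0.666 FPKM), and on the opposite strand Arl13a over 20528 bases (0 to 0.324 FPKM) and Cstf2 over 399 bases (10.9 to 12.8 FPKM).

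The cytosolic partners of NOX1 were far more abundant than Nox1 itself. Noxo1, the organiser subunit, was at 55.7 and 64.4 FPKM in the female and male distal, 59.4 and 54.8 FPKM in the female and male middle, and 51.8 and 46.5 FPKM in the female and male proximal libraries. Both distal and both middle values were above both proximal ones, yet the distal minus proximal log2 difference was only 0.28 (SE 0.12, 95% interval -0.03 to 0.59, limma adjusted p = 0.206). Noxa1, the activator subunit, had its lowest values in distal colon: 24.3 and 36.7 FPKM in the female and male distal, 40.7 and 44.9 FPKM in the female and male middle, and 46.9 and 41.3 FPKM in the female and male proximal libraries. Both distal values lay below the other 4. Its log2 difference was -0.54 for distal minus proximal (SE 0.19, 95% interval -1.01 to -0.08, limma adjusted p = 0.125) and -0.50 for distal minus middle colon (SE 0.19, limma adjusted p = 0.358), neither past the threshold. Without the male proximal library Noxa1 passed between distal and proximal colon (limma adjusted p = 0.0307, log2 difference -0.81); over all settings the adjusted p ranged from 0.0307 to 0.52.

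Cyba, the p22phox partner that NOX1 shares with the phagocyte oxidase, was the most abundant member in every library. It was at 84.9 and 73.7 FPKM in the female and male distal, 88.5 and 58.5 FPKM in the female and male middle, and 87.7 and 99.0 FPKM in the female and male proximal libraries. The male middle library was the lowest, followed by the male distal library. The distal values lay below the proximal ones by a log2 difference of -0.23 (SE 0.19, 95% interval -0.70 to 0.23, limma adjusted p = 0.472). Cyba overlaps the opposite-strand gene model Gm20388 over its whole length on chromosome 8 (122424776 to 122432930), and Noxo1 (chromosome 17, 24696234 to 24700529) shares 2581 bases with Tbl3 on the opposite strand, while Noxa1 (chromosome 2, 25085667 to 25095149) shares 50 bases with Entpd8. The library kit marks strand, but how the counting used strand is not given in the sources used here, so the values of these genes, of Nox1 and of Duoxa2, which shares 695 bases with Duoxa1, may include reads of the overlapping genes. Strand cannot separate Nox1 from Xkrx where they overlap.

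**Figure D1:**
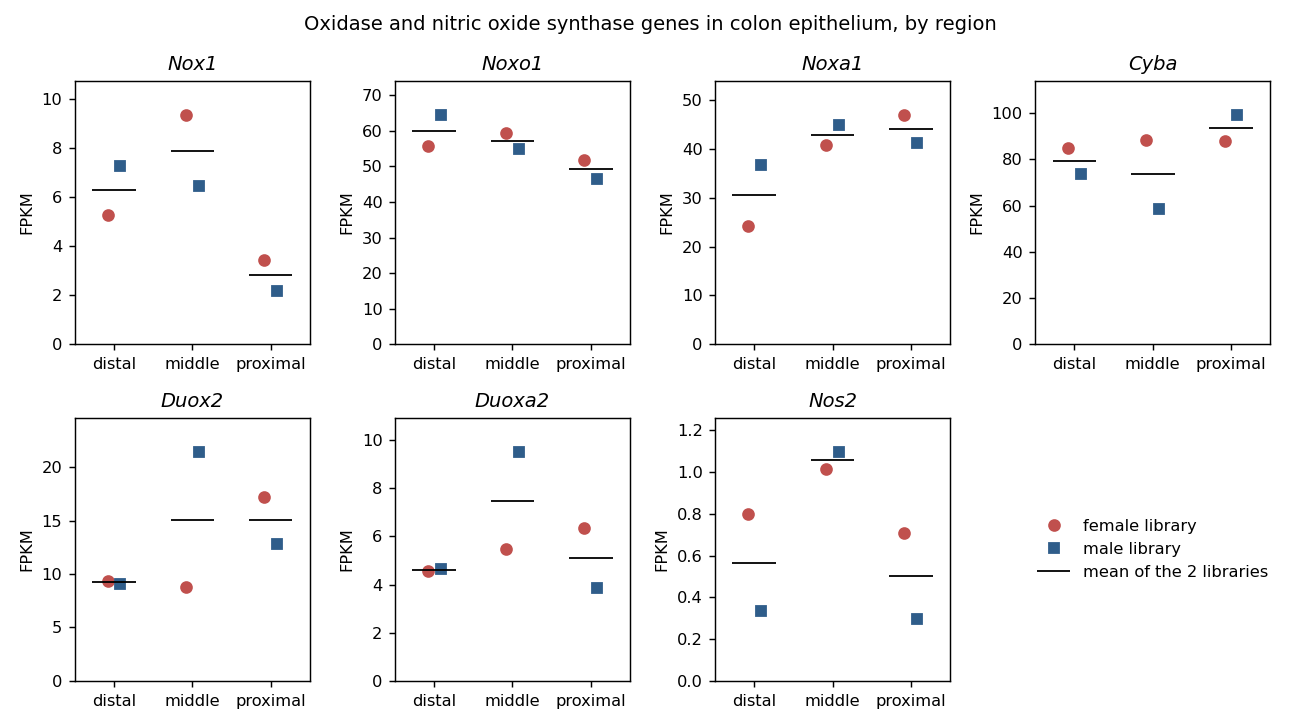
FPKM of the 7 genes (vertical axes, each from 0) in distal, middle and proximal colon epithelium. Points are single libraries, circles female and squares male, and the line is the mean of the 2 libraries of a region; Nox1 is lowest in both proximal libraries and Duox2 and Duoxa2 are highest in the male middle library.

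The order of levels was the same at the top in all 6 libraries: Cyba, then Noxo1, then Noxa1, with Nos2 always last. Nox1, Duox2 and Duoxa2 changed places. In both distal libraries Duox2 was above Nox1 and Nox1 above Duoxa2; in the female middle library Nox1 was above Duox2; and in the male middle and both proximal libraries Nox1 was the lowest of these 3. Noxo1 exceeded Nox1 by 10.5- and 8.86-fold in the female and male distal, 6.36- and 8.50-fold in the female and male middle, and 15.0- and 21.5-fold in the female and male proximal libraries. The ratio of Noxo1 to Noxa1 was 2.30 and 1.76 in the female and male distal libraries, against 1.11 and 1.13 in the female and male proximal libraries, with 1.46 and 1.22 in the female and male middle libraries between them. These are ratios of FPKM levels within a library and were not tested.

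Duox2, the surface oxidase, differed most between the female and the male library of the middle colon. It was at 9.39 and 9.02 FPKM in the female and male distal, 8.74 and 21.4 FPKM in the female and male middle, and 17.2 and 12.8 FPKM in the female and male proximal libraries. The distal pair lay close together and below both proximal values, while the male middle value was the highest of all and the female middle value the lowest. The distal minus proximal log2 difference was -0.64 (SE 0.37, 95% interval -1.57 to 0.30, limma adjusted p = 0.327). The interval of the middle minus proximal difference, -1.04 to 0.83, covers changes in both directions (log2 difference -0.11, limma adjusted p = 0.928).

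Duoxa2, the maturation factor, shared the high male middle value. It was at 4.56 and 4.66 FPKM in the female and male distal, 5.46 and 9.50 FPKM in the female and male middle, and 6.36 and 3.86 FPKM in the female and male proximal libraries. The male middle library was highest for both genes of the pair, and the proximal values of Duoxa2 fell on either side of the distal ones. Its log2 differences were 0.46 for middle minus proximal (SE 0.30, limma adjusted p = 0.513), -0.09 for distal minus proximal (SE 0.30, limma adjusted p = 0.882) and -0.55 for distal minus middle (SE 0.30, limma adjusted p = 0.544). Duox2 exceeded Duoxa2 in every library, by 2.06- and 1.94-fold in the female and male distal, 1.60- and 2.25-fold in the female and male middle, and 2.71- and 3.33-fold in the female and male proximal libraries. The paralogous pair Duox1 and Duoxa1 was at most 0.0994 and 0.190 FPKM in any library.

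Nos2 was near the lower limit of the measurement. It was at 0.797 and 0.336 FPKM in the female and male distal, 1.02 and 1.10 FPKM in the female and male middle, and 0.708 and 0.297 FPKM in the female and male proximal libraries. Both middle values were above the other 4, and in the distal and proximal colon the male value was below the female one. With the estimated depths given under processing, these levels correspond to about 9 to 40 fragments per library. The middle minus proximal log2 difference was 0.47 (SE 0.24, 95% interval -0.13 to 1.06, limma adjusted p = 0.39). Nos2 entered the test only because its 2 middle values reached 1 FPKM, so its being tested is not independent of that pattern. Nos1 was at most 0.0132 FPKM and Nos3 was listed at 0 in every library. Nos2 lies on chromosome 11, 78920787 to 78960254.

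Of the 7 members, limma called 0 between distal and proximal colon (2 at an unadjusted p under 0.05), 0 between middle and proximal (1), 0 between distal and middle (1) and 0 between female and male libraries (0, limma adjusted p 0.642 to 0.961). The same fit called 14.1% of the 11815 genes tested between distal and proximal, 2.45% between middle and proximal, 0.499% between distal and middle and 0.0423% between female and male libraries. An unadjusted limma p under 0.05 was reached by 29.2%, 18.3%, 12.7% and 10.6% of tested genes, in the same order. The distal libraries did not overlap the proximal ones for 5 of 7 members, and for 60.3% of all tested genes; for middle against proximal and distal against middle colon the counts were 3 and 3 of 7, with 43.8% and 39.7% of tested genes. The members' counts stand near this background. Their median log2 difference was -0.09 for distal minus proximal, 0.21 for middle minus proximal and -0.41 for distal minus middle, where the median of all tested genes was 0.01, 0.00 and 0.01. All 7 members passed the filter on low values, Nos2 only through its 2 middle values. Nos2 is 1 of the 3 members that did not overlap in each comparison with middle colon. Its own difference, -0.41, is the members' median for distal minus middle. These summaries are therefore not independent of the filter.

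**Figure D2:**
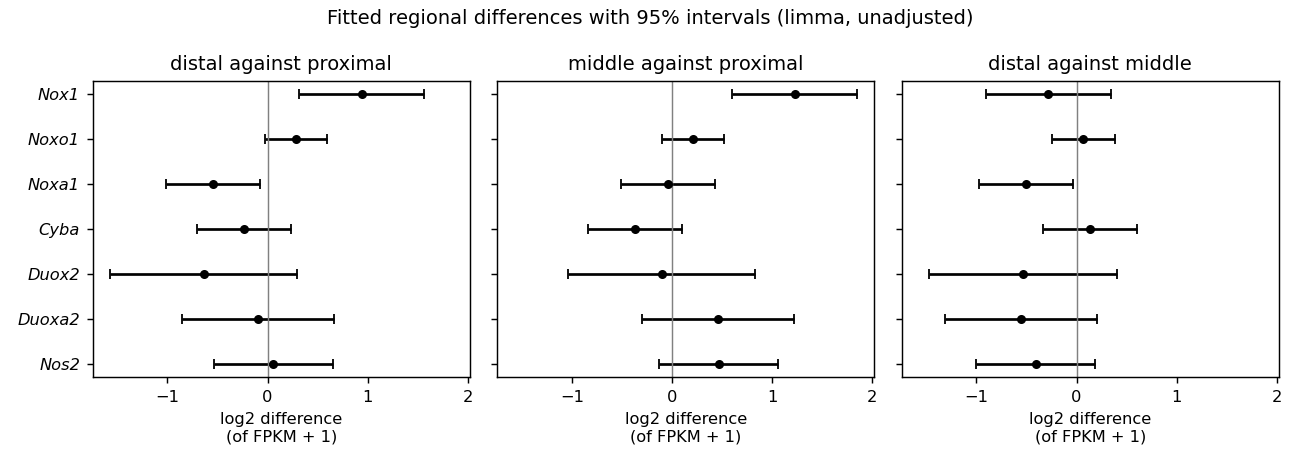
Fitted log2 difference of FPKM + 1 (horizontal axis) for each of the 7 genes in 3 regional comparisons, as limma estimates with unadjusted 95% intervals from 6 libraries. Nox1 is the only one of the 7 whose interval lies above 0 in both comparisons with proximal colon, and the Noxa1 interval lies below 0 for distal against proximal and against middle colon.

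Among oxidase relatives and activators, Cybb, the phagocyte catalytic subunit gp91phox, was at most 0.0668 FPKM, Ncf4 at most 0.447 FPKM, and Ncf1, the counterpart of Noxo1, at 0.466 and 0.0981 FPKM in the female and male distal against 0.777 and 1.35 FPKM in the female and male proximal libraries. Nox3 and Nox4 were listed at 0 in every library. Rac1, the GTPase of the NOX1 complex, was at 194 to 220 FPKM in all 6 libraries. Rac2, its relative of blood cells, fell to 0.746 and 0.404 FPKM in the female and male distal, against 1.89 and 3.48 FPKM in the female and male proximal libraries (log2 difference -1.20, SE 0.29, limma adjusted p = 0.0487), alongside the lymphocyte marker sums given above; their part in this was not tested. Rac2 lost its call with a pseudocount of 0.1, with no filter, with quantile normalization and without any one of 5 libraries (adjusted p 0.055 to 0.32); without the female proximal library it kept it. Sh3pxd2a, which encodes the NOX1-associated scaffold TKS5, rose to 5.90 and 3.67 FPKM in the female and male distal, against 1.76 and 1.90 FPKM in the female and male proximal libraries (log2 difference with a 95% interval 0.46 to 1.54, limma adjusted p = 0.037); it lost its call with no filter, with sex left out of the model and without any one of 5 libraries (0.0592 to 0.211). Of the 17 genes of this list 9 were tested; 2 rose, Sh3pxd2a among them, and 1 fell between distal and proximal colon, where 6.47% and 7.64% of all tested genes did, and 0 passed in the other 2 regional comparisons. The median log2 difference of the list was -0.06 between distal and proximal colon.

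**Figure D3:**
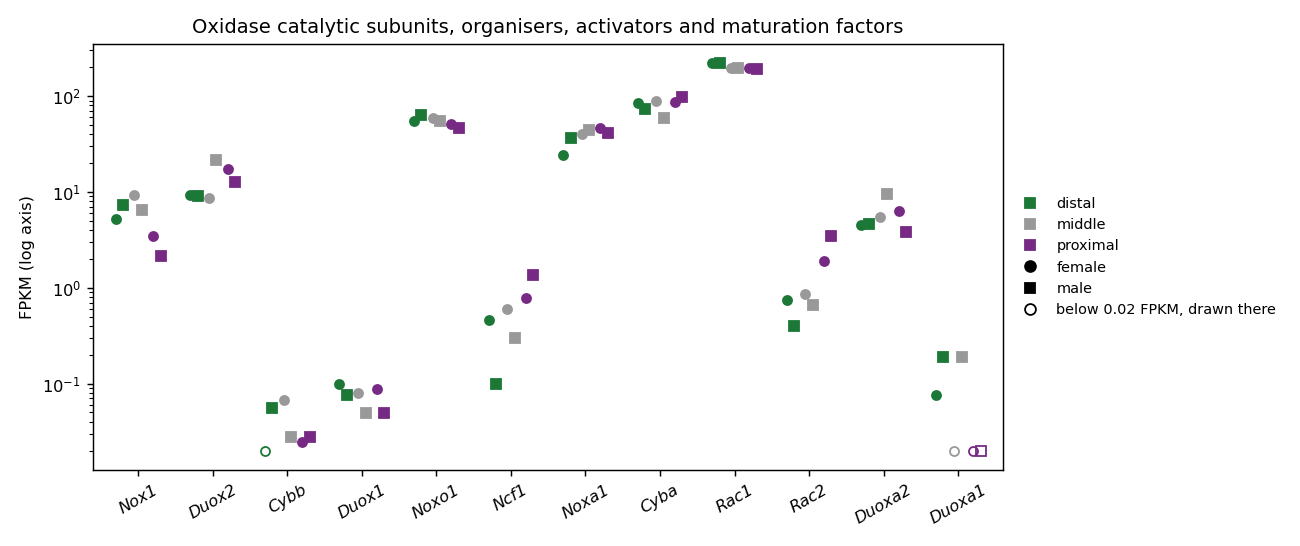
FPKM on a log axis of oxidase catalytic subunits (Nox1, Duox2, Cybb, Duox1), organisers (Noxo1, Ncf1), the activator Noxa1, Cyba, the GTPases Rac1 and Rac2 and the DUOX maturation factors, in distal (green), middle (grey) and proximal (purple) libraries, circles female and squares male, with values under 0.02 drawn open at 0.02. Noxo1, Noxa1, Cyba and Rac1 lie above Nox1 in every library, and Cybb and Duox1 stay below 0.1 FPKM.

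Enzymes that use or remove hydrogen peroxide included some of the largest differences near this pathway. Lpo, lactoperoxidase, which oxidises thiocyanate with hydrogen peroxide, was at 1.48 and 4.66 FPKM in the female and male distal, 4.94 and 14.0 FPKM in the female and male middle, and 36.2 and 49.0 FPKM in the female and male proximal libraries. On the log2 scale it was lower by 3.52 in distal than in proximal colon (SE 0.23, limma adjusted p = 0.00233). It was lower by 2.19 in middle than in proximal colon (SE 0.23, limma adjusted p = 0.0257). The first call held under all 13 alternatives; the second was lost without either middle library (adjusted p 0.206 and 0.0741), with no filter (0.0906) and with sex left out of the model (0.142). Lpo was the 1 tested gene of 5 peroxidases, with Mpo, Epx and Pxdn at most 0.502 FPKM.

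Prdx6, a peroxiredoxin that reduces peroxides and phospholipid hydroperoxides, was at 2266 and 1843 FPKM in the female and male distal, 1220.4 and 747 FPKM in the female and male middle, and 486 and 547 FPKM in the female and male proximal libraries. It rose by 1.99 on the log2 scale between distal and proximal colon (SE 0.23, limma adjusted p = 0.00754; adjusted p = 0.0677 without the male distal library). Gpx4, which reduces lipid peroxides, fell to 109 and 106 FPKM in the female and male distal, against 162 and 206 FPKM in the female and male proximal libraries (log2 difference -0.76, SE 0.15, limma adjusted p = 0.0289); it was not called with no filter (0.0612) or without either distal library or the male proximal library (0.0579 to 0.228). Of the 20 tested genes of superoxide and peroxide removal, 1 rose, 1 fell and 18 did not pass between distal and proximal colon (background 6.47% higher and 7.64% lower). In the other 2 regional comparisons 0 passed. Their median log2 difference between distal and proximal colon was -0.09.

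Of 13 tested genes of the Nrf2 response and of NADPH supply, 0 rose and 7 fell between distal and proximal colon (background 7.64% lower), with a median log2 difference of -0.61 against 0.01 for all tested genes. Nqo1, a quinone reductase, fell to 13.7 and 24.4 FPKM in the female and male distal, against 50.9 and 78.8 FPKM in the female and male proximal libraries (log2 difference -1.74, SE 0.15, limma adjusted p = 0.00358). Me1, the malic enzyme that makes NADPH, fell to 0.0659 and 0.0416 FPKM in the female and male distal, against 6.70 and 15.3 FPKM in the female and male proximal libraries (log2 difference -3.41, SE 0.32, limma adjusted p = 0.00422). Both calls held under all 13 alternatives. The sulfiredoxin gene Srxn1, the pentose phosphate enzyme gene Taldo1, Nfe2l2, which encodes NRF2 itself, and the NADPH-producing Idh1 fell by 1.03, 0.87, 0.75 and 0.66 on the log2 scale (limma adjusted p = 0.013, 0.00894, 0.0175 and 0.0498). The first 3 of these were not called without either distal library, and Idh1 was called in 4 of 13 alternatives. The seventh was Tkt, also of the pentose phosphate pathway, named after its values were seen (log2 difference -0.48). Between middle and proximal colon 0 rose and 2 fell, Me1 and Nqo1 (background 1.19% higher and 1.25% lower). Neither call held with a pseudocount of 0.1, with no filter, with no variance trend or with sex left out of the model. Both were also lost without either middle library or the male proximal library. Between distal and middle colon 0 passed (0.11% of tested genes were higher and 0.389% lower).

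Some genes of arginine use also differed. Arg2, the mitochondrial arginase that competes with NOS2 for arginine, fell to 2.57 and 2.51 FPKM in the female and male distal, against 12.2 and 36.5 FPKM in the female and male proximal libraries (log2 difference -2.65, SE 0.41, limma adjusted p = 0.0145; 0.0996 without the male distal library). Ddah1, which degrades methylated arginines that inhibit nitric oxide synthases, was at 2.64 and 5.23 FPKM in the female and male distal, 9.48 and 19.0 FPKM in the female and male middle, and 21.2 and 25.6 FPKM in the female and male proximal libraries. Its log2 difference was -2.35 for distal minus proximal (SE 0.18, limma adjusted p = 0.00281, held under all 13 alternatives) and -1.60 for distal minus middle colon (SE 0.18, limma adjusted p = 0.0435, lost in each alternative that left out a distal or middle library, with no filter, with no variance trend and with sex left out). Asl, the arginine-forming lyase of the urea cycle, rose to 28.5 FPKM in both distal, against 19.1 and 19.6 FPKM in the female and male proximal libraries (log2 difference 0.54, SE 0.10, limma adjusted p = 0.0224; 0.0617 to 0.2 without either distal or the female proximal library). Of the 12 tested genes of this list 1 rose and 2 fell between distal and proximal colon (background 6.47% higher and 7.64% lower). Between middle and proximal colon 0 passed. Between distal and middle colon 0 rose and 1 fell (background 0.11% higher and 0.389% lower). The median log2 difference between distal and proximal colon was -0.07.

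**Figure D4:**
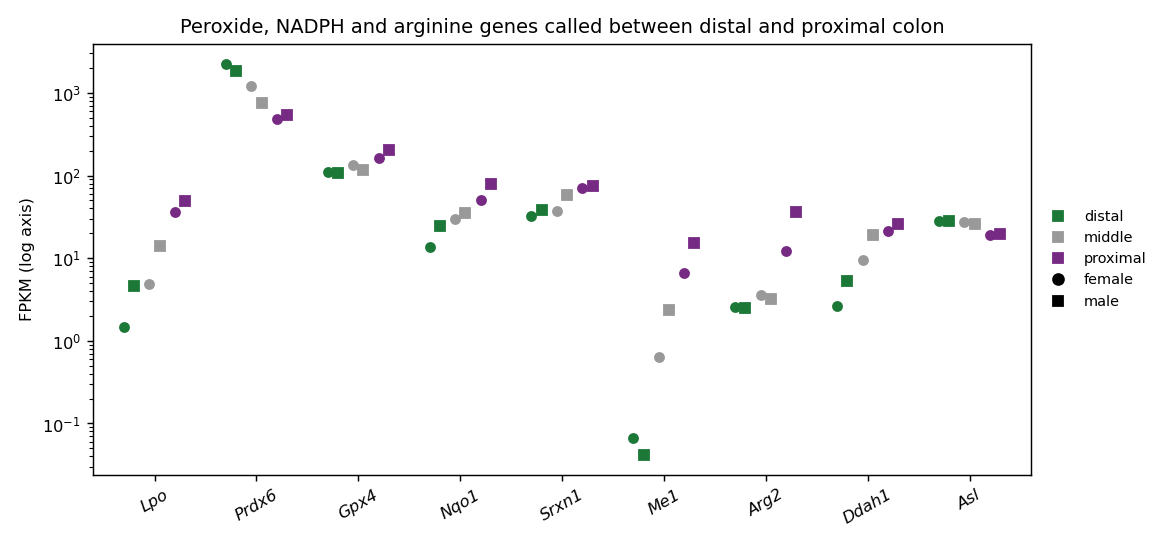
FPKM on a log axis of 9 genes of peroxide, NADPH and arginine metabolism called between distal and proximal colon, in distal (green), middle (grey) and proximal (purple) libraries, circles female and squares male. Lpo, Nqo1, Me1, Arg2 and Ddah1 are lowest in the distal libraries, and Prdx6 and Asl are highest there.

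Of 28 tested genes for receptors and factors upstream of Duox2, Nox1 and Nos2, 1 rose and 5 fell between distal and proximal colon (background 6.47% higher and 7.64% lower). Between these regions 22 did not pass, and the median log2 difference was -0.09. Stat3, a transcription factor of the response to interleukin 22, rose to 44.8 and 48.5 FPKM in the female and male distal, against 32.2 and 35.7 FPKM in the female and male proximal libraries (log2 difference 0.45, SE 0.09, limma adjusted p = 0.0323); the call held in 5 of 13 alternatives and was lost without any one of the 6 libraries. The flagellin receptor Tlr5 fell to 2.12 and 1.91 FPKM in the female and male distal, against 5.78 and 10.2 FPKM in the female and male proximal libraries (log2 difference -1.53, SE 0.23, limma adjusted p = 0.0131; 0.095 without the male distal library). Il4ra, Nod2 and Nfkbiz fell by 1.20, 1.01 and 0.78, calls that were each lost, among others, without either distal library, and the homeobox factor Cdx2 fell by 3.42 on the log2 scale. Between middle and proximal colon 0 passed. Between distal and middle colon 0 rose and 1 fell (background 0.11% higher and 0.389% lower). This was Cdx2, lower in distal than in middle colon by 2.41 (limma adjusted p = 0.0392). This call was lost with no filter, with no variance trend, with sex left out of the model and without any one of the distal or middle libraries (0.0782 to 0.301). The receptor genes Ifngr1, Il22ra1 and Il17ra and the factor Rela did not pass in any regional comparison.

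Of 15 host defence genes often induced together with Duox2, 10 were tested. Between distal and proximal colon 2 rose and 3 fell (background 6.47% higher and 7.64% lower), and the median log2 difference was 0.64. The amino acid transporter gene Slc6a14 rose to 472 and 329 FPKM in the female and male distal, against 265 and 163 FPKM in the female and male proximal libraries (log2 difference 0.92, SE 0.12, limma adjusted p = 0.00973; 0.0504 to 0.158 without either distal library or with sex left out of the model). Cxcl5, a neutrophil chemokine, was the other that rose, at 1.11 and 1.14 FPKM in the female and male distal libraries (limma adjusted p = 0.0482, lost without any one of the 6 libraries). Reg3b, Reg3g and Saa3 fell, with Reg3b and Reg3g listed at 0 in both distal libraries. The same 3 were called lower in middle than in proximal colon (background 1.25% lower). Saa3 was also called lower in distal than in middle colon (background 0.389% lower). Between middle and proximal colon, Reg3b and Reg3g lost their calls with no filter (limma adjusted p = 0.0881) and without the female middle library (0.0792). Saa3 lost both of these calls with a pseudocount of 0.1, with no filter, with a minimum of 5 FPKM, with sex left out of the model and without either middle library (0.0539 to 0.321), and the one between distal and middle colon also without either distal library. The inflammation markers Lcn2 and S100a8 were at most 0.195 and 0.532 FPKM in any library. They do not stand for the whole list: Saa1 ranged from 126 FPKM in the male proximal to 2123 FPKM in the female middle library. Its distal minus proximal log2 difference of 2.22 did not pass (limma adjusted p = 0.0952).

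The genes whose pattern over the 6 libraries was most like that of a member were found by Pearson correlation of log2(FPKM + 1) among 8650 tested genes with a mean of at least 5 FPKM. For Nox1 they were Itpa, Golph3l and Ccdc122 (r = 0.990, 0.989 and 0.987), for Noxo1 Exd2 and Pik3ca (0.993 and 0.992), and for Noxa1 Dpep1, Guca2a and Cpne8 (0.986, 0.983 and 0.979). For Duox2 they were Ino80d, Ccnyl1 and the transferrin receptor gene Tfrc (0.983, 0.975 and 0.975), and for Duoxa2 Pygb, Rnf170 and Inf2 (0.979, 0.967 and 0.961). For Cyba they were Mrpl39, Ctnnbl1 and Htra2 (0.988, 0.986 and 0.980) and for Nos2 Slc25a32, Camk1 and Adam9 (0.976, 0.974 and 0.972). Guca2a, which encodes guanylin, was at 1148 and 2612 FPKM in the female and male distal, 3896 and 5351 FPKM in the female and male middle, and 6248.5 and 5005 FPKM in the female and male proximal libraries. Tfrc had its highest level, 185 FPKM, in the male middle library, as Duox2 did, and 46.8 to 102.7 FPKM in the other 5. These values rest on 6 libraries and a choice among 8650 genes, and are given as descriptions.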

How the data were processed

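RNA libraries were prepared with a stranded kit for polyadenylated RNA, per the labels' protocols. The authors deposited FPKM per gene; Cuffdiff 2.2.1 and TopHat2 2.1.1, with SAMtools 0.1.18 and Bowtie2 2.2.8, are named for mm10 in the submitters' processing notes. Settings, gene annotation and strand handling: not stated in the labels or file headers. Because these values are normalized, tests were run on a log scale. The spacing of values under 0.2 FPKM of genes with 1 transcript over 1500 bases, at an assumed fragment length of 200, placed the depth at about 7.82 to 9.94 M fragments per library; this step matched whole fragments within 0.1 for 74.8% to 79.3% of the values used, so it is approximate. Depth limits low genes most.

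Genes with at least 1 FPKM in at least 2 libraries were kept (11815). limma 3.58.1 (R 4.3.3) fitted region and sex on log2(FPKM + 1) over 6 libraries, with a variance trend, 2 residual and 3.49 prior degrees of freedom, and Benjamini-Hochberg adjustment over all kept genes at 0.05. The test was tried on simulated data first. The 13 alternatives left out each library in turn, dropped the filter, raised it to 5 FPKM, lowered the pseudocount to 0.1, rescaled by median ratio or quantiles, dropped the variance trend, or dropped sex (for the sex comparison, region) as a term. Region by sex could not be tested, with 1 library in each cell of the design.

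Members and lists were chosen with earlier results of these data known. Of each of 7 pathway lists, genes past the threshold in a regional comparison were named, at most 6 by size; per member, the 3 most similar genes were named, except that some genes are not reported here. Symbols of 2 list genes were matched through RefSeq synonyms. Coordinates come from GENCODE M21 and RefSeq (GRCm38); 6 of 7 members have a RefSeq promoter window. Figures used matplotlib 3.10.9 under Python 3.11.15.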

Additional observations from a re-analysis of the deposited data

Results flagged for a closer look

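In 9 cases, over the 7 members and 3 regional comparisons, the female and the male libraries of a member moved in opposite directions between the same regions. How often other tested genes did so was not counted. With 1 library per sex and region these contrasts were not tested. The largest was Duox2 between middle and proximal colon, where the log2 difference was -0.91 in the female and 0.69 in the male libraries, a female minus male contrast of -1.60. Duox2 between distal and middle colon gave 0.09 in the female and -1.16 in the male libraries (contrast 1.25). Duoxa2 between middle and proximal colon gave -0.19 in the female and 1.11 in the male libraries (contrast -1.30), and between distal and proximal colon -0.40 in the female and 0.22 in the male libraries (contrast -0.62). The 2 middle libraries thus stand apart for both genes of the pair. For Nox1 between distal and middle colon the contrast was -0.87, from -0.72 in the female and 0.15 in the male libraries. Cyba had a contrast of 0.76 between middle and proximal colon and -0.39 between distal and middle colon, Noxo1 of -0.32 between distal and middle colon, and Noxa1 of -0.32 between middle and proximal colon.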

How the results depend on the processing

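Of 360 recalculated member differences, 331 kept their direction and side of the threshold, 24 reversed, all with 1 library left out, and 5 newly passed, the Nox1 and Noxa1 values given above. In the main analysis, 2 members had an unadjusted limma p under 0.05 between distal and proximal colon, as did 29.2% of tested genes. Between middle and proximal colon it was 1 member, against 18.3% of tested genes.

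The count of genes called between middle and proximal colon (289 genes) was 4 with no filter, 187 with no variance trend and 24 with sex left out of the model. Between distal and middle colon (59 genes) it was 2, 29 and 17. With 1 library left out, limma called 340 (without the male distal library) to 1583 genes between distal and proximal colon, 0 (without the female middle library, 1402 at an unadjusted p under 0.05) to 806 (without the female proximal library) between middle and proximal, 0 (without the male distal library, 753 at an unadjusted p under 0.05) to 406 (without either proximal library) between distal and middle, and 2 to 25 between female and male libraries. The cause was not tested.

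Reversals with 1 library left out gave these log2 ranges. For distal minus proximal colon they were -0.57 to 0.39 for Duoxa2, -0.52 to 0.05 for Cyba and -0.071 to 0.19 for Nos2. For middle minus proximal colon they were -0.31 to 0.23 for Noxa1, -0.82 to 0.61 for Duox2 and -0.031 to 0.95 for Duoxa2. For distal minus middle colon they were -0.72 to 0.16 for Nox1, -0.10 to 0.24 for Noxo1, -1.25 to 0.18 for Duox2 and -0.15 to 0.42 for Cyba. For female minus male libraries they were -0.045 to 0.13 for Noxo1, -0.36 to 0.022 for Noxa1, -0.57 to 0.23 for Duox2 and -0.36 to 0.29 for Duoxa2.

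Of 35 calls of list genes, 14 to 29 held with 1 library left out and 21 to 35 under the other settings. These list checks were chosen after seeing the data. Where a region keeps 1 library, that library is assumed to vary like the others. The labels give no replicate numbers; sex, which is shared across regions, is already a term of the model, and the counts with sex left out are those above.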
